A study of Apis mellifera with 6 samples.

Results

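Among 10151 genes measured by RNA-Seq in the honey bee midgut, 95 were halved or more in every midgut at 45 °C compared with every midgut at 35 °C. They were chosen by a rule on the values themselves. The mean over the 35 °C libraries had to reach 100 normalized counts, and the highest value at 45 °C had to be at most 50% of the lowest value at 35 °C. The 100 genes with the highest mean at 35 °C were left out, as were LOC406142, LOC406144 and the genes of cytochromes P450, microRNAs, transfer RNAs and cytoplasmic ribosomal proteins recognised by their IDs. That left 7142 genes that could enter, called eligible below, of which 95 (1.33%) met the limit. A normalized count is the number of reads on a gene divided by a size factor that puts the libraries on a common scale.

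The study compared midguts of Apis mellifera kept at 35 °C, close to the temperature of the brood nest, with midguts of bees given a heat shock of 4 h at 45 °C. Each group held 3 libraries, prepared by poly(A) selection from the RNA of 1 midgut each. All bees were fed sucrose solution with 0.5% DMSO, and they were outbred bees of mixed subspecies caught at the landing board. The sample labels mark all 3 libraries at 35 °C, and none at 45 °C, as taken over from another series, so an effect of the temperature and one of the originating series cannot be told apart. The labels give 4 h of feeding at either temperature, whereas the study's methods give a longer feeding for DMSO-fed control bees of its other experiments, so how long the 35 °C bees were fed is uncertain.

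Heat unfolds proteins, and insect cells answer by raising the transcripts of chaperones through heat shock factor. In Drosophila a heat shock is known to shut down much of the transcription and translation of other genes. The level of a poly(A) transcript depends on how fast it is made and how fast it decays, and these libraries measure the level alone. In bulk midgut RNA, fewer cells of a type and less RNA per cell cannot be told apart. The midgut epithelium holds digestive enterocytes, hormone-secreting enteroendocrine cells and progenitor cells, wrapped in visceral muscle, and unlike the foregut and hindgut it is not lined with cuticle.

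The libraries held between 23305758 and 26921417 reads on listed genes. Of the 3 midgut symbols, AGLU2, an alpha-glucosidase, was high in both groups, with means of 612097 and 559274 normalized counts at 35 and 45 °C. The mean of Vha16 went from 6643 to 4589 and that of cad from 186 to 285. The 3 summed to between 556750 and 652214 against 545359 to 589154, nearly all of it AGLU2, with no call. Marker symbols of other cells were summed by list. The 8 muscle genes had 23249 to 45245 normalized counts at 35 °C against 40127 to 52275 at 45 °C. The 10 neuronal genes had 6227 to 7171 against 9582 to 12305, and the 3 enteroendocrine peptide genes 882 to 990.1 against 647 to 1169.5. Argk (means of 29415 and 39400) made up most of the muscle sum and Syx1A (5048 and 8929) most of the neuronal sum. Other muscle and neuronal genes went either way, such as TpnCIIIa (805 to 383), TpnT (1316 to 1724), Para (949 to 712) and NLG-3 (112 to 209). In limma, at an adjusted p below 0.05 and a log2 fold change beyond 1, 4.94% of all genes were called lower at 45 °C and 13.1% higher. By the same threshold 2 of the 8 muscle genes and 1 of the 3 peptide genes were called lower, and 0 genes of these 3 lists higher. The muscle count was 0 without replicate 2 at 35 °C or replicate 2 at 45 °C, and 1 without replicate 1 or 3 at 35 °C or replicate 3 at 45 °C, with DESeq2, with a pseudocount of 10, with a replicate block and among genes with a mean of at least 100. The peptide gene was not called with a pseudocount of 10. A neuronal gene was called higher without replicate 2 or 3 at 35 °C, without replicate 2 at 45 °C and with a replicate block. The 5 fat body genes summed to 643 to 834 against 923 to 1405, and 2 of them were called higher. Without replicate 1 or 3 at 35 °C or replicate 2 or 3 at 45 °C, 1 was called higher. With library size alone, and without replicate 1 at 35 °C or replicate 2 or 3 at 45 °C, 1 fat body gene was called lower. The 3 genes listed for the hypopharyngeal gland (Mrjp4, Mrjp7 and Mrjp8) summed to 1426 to 2712 against 1293 to 2199. Most of that was Mrjp7 and Mrjp8, and how particular they are to that gland was not tested. The hemocyte gene PPO had 54.2 to 65.3 against 97.3 to 111. No summed list was at 0 in any library. None of these marker genes was among the 95, but several, such as Argk, AGLU2 and PPO, were not eligible. With 1.33% of eligible genes chosen, such short lists would mostly hold none, so nothing is read from it. The part of any change in cell content in the levels below was not tested.

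The 45 °C against 35 °C contrast chose the 95 genes, so their fall is described here without a test. Over the 95 genes the mean at 45 °C ranged from 9.32% to 46.0% of the mean at 35 °C, with a median of 35.8%. The median over eligible genes was 93.0%. Most of the falls were moderate: 2 genes kept at most 10% of their 35 °C mean, 11 kept over 10% and up to 25%, 19 kept over 40%, and the remaining genes lay between 25% and 40%. In the fit over all genes (limma), 501 genes (4.94%) were lower at 45 °C at an adjusted p below 0.05 and a log2 fold change below -1, and 1327 (13.1%) were higher by the mirrored threshold. With libraries scaled by their size alone these counts became 1616 and 829, and after quantile normalization 801 and 1077. All 3 values at 45 °C lay below all 3 at 35 °C in 26.4% of all genes. The 95 genes all lay among the 501, which their selection largely fixes, and nothing is read from that count. The mirror image of the rule, with the lowest value at 45 °C at least 2 times the highest at 35 °C, was met by 319 eligible genes (4.47%).

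**Figure D1:**
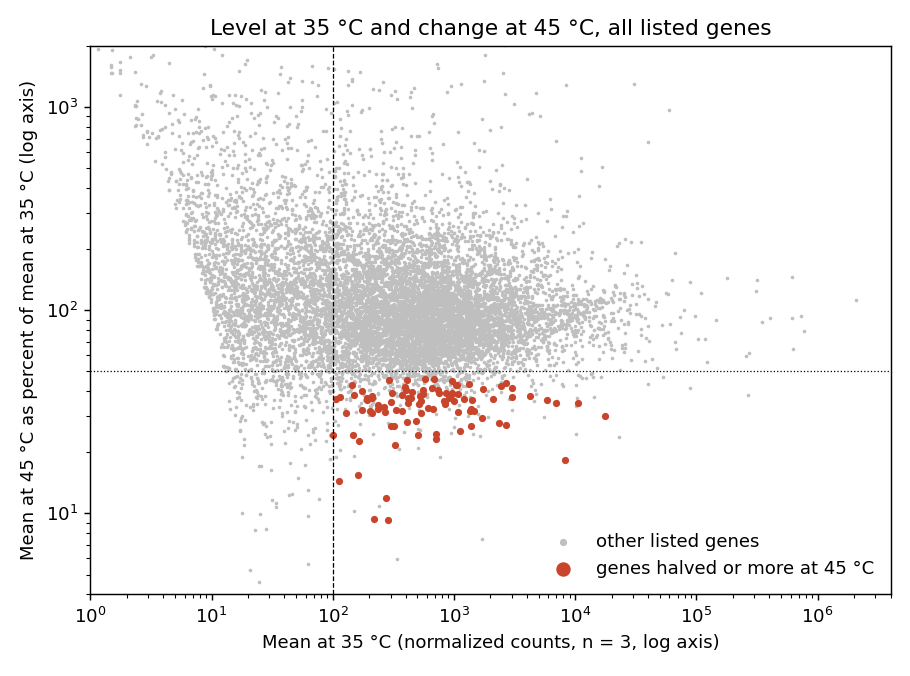
Mean at 35 °C (x axis, normalized counts, log axis) against the mean at 45 °C as percent of it (y axis, log axis), 1 point per gene, means over 3 libraries each. The 95 genes in red lie right of the dashed line at a mean of 100 and below the dotted line at 50%, between 9.32% and 46.0%, and 75 listed genes fall outside the axes.

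The genes covered most of the range of expression allowed by the rule. Their means at 35 °C ran from 101.4 to 17539 normalized counts with a median of 537, close to the median of 605 over eligible genes. The 5 most expressed genes made up 41.2% of the summed 35 °C means. Together the 95 genes took 0.546%, 0.539% and 0.547% of all reads on listed genes in the 35 °C libraries, and 0.119%, 0.145% and 0.157% in the heated ones. The share was nearly constant in the 35 °C midguts and varied more in the heated ones. The gap between the groups follows from the rule and is not a finding. These are shares of reads before the size factors were applied, as in the scaling by library size alone. The median fall was similar across levels, within a range whose upper end is set by the limit between groups. In the 32 genes with the highest 35 °C means the median 45 °C mean was 36.4% of that at 35 °C, and it was 36.4% in the middle 32 and 32.3% in the 31 lowest. The deepest falls were not spread evenly. Most of the 13 genes that kept at most 25% were among the 31 lowest, and LOC102656517 was the only one among the 32 highest. The precision was lower for the weakest genes, but 87 of the 95 had at least 20 reads in each heated library, and no gene had fewer than 74 reads in a library at 35 °C.

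**Figure D2:**
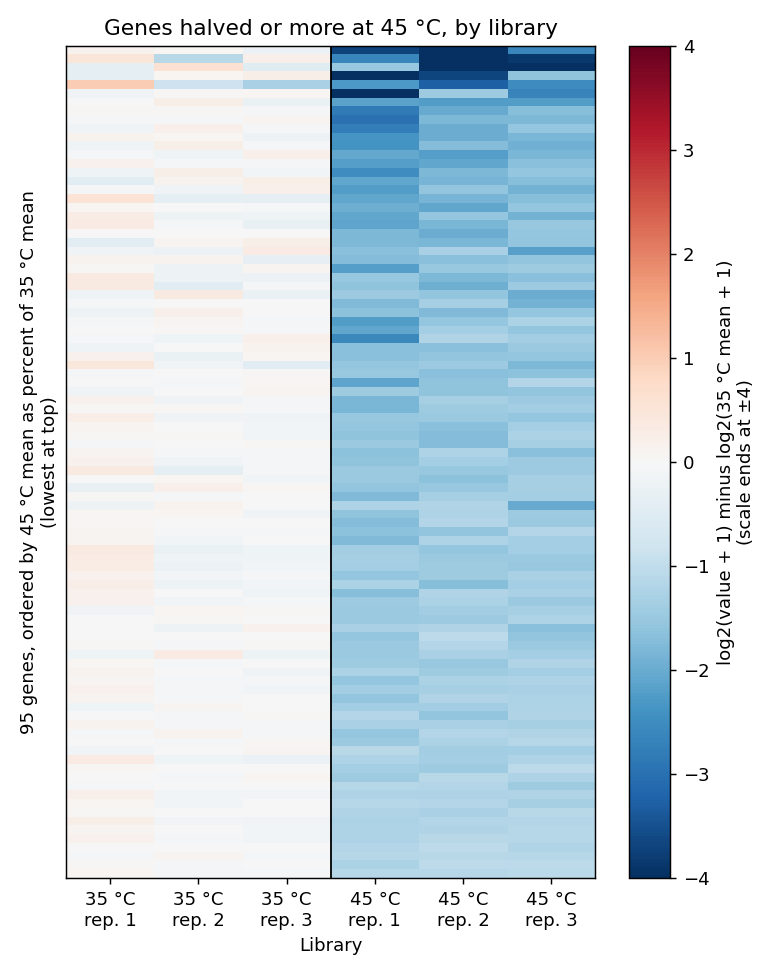
Heat map of the 95 genes (rows, ordered by the 45 °C mean as percent of the 35 °C mean, lowest at top) in the 6 libraries (columns). Colour gives log2(value + 1) minus log2 of the 35 °C mean + 1, on a scale that ends at 4 in both directions. The heated columns are blue in every row and deepest at the top, where 9 of the 10 genes with heated values over 2-fold apart (or at 0) lie.

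Largest falls. The 12 genes with the lowest 45 °C mean relative to 35 °C kept between 9.32% and 24.3% of it. LOC107965565, a long non-coding RNA gene, had the largest fall of the 95. It had 314, 298 and 240.2 normalized counts at 35 °C (284 ± 38.9, SD, n = 3) and 20.9, 12.5 and 46.0 at 45 °C (26.5 ± 17.4, SD, n = 3). Its highest heated value was 19.2% of its lowest control value, and it was the single gene whose groups lay at least 4-fold apart. When single libraries were left out, its 45 °C mean stayed between 5.88% and 11.8% of the 35 °C mean. LOC107964844, an ID that the gene table used here does not hold, kept 9.35%. It had 303, 100.7 and 248 normalized counts at 35 °C and 34.5, 12.5 and 14.0 at 45 °C, so one control library was well below the other two. With a library left out it kept between 6.10% and 11.7%. LOC100576573, a second long non-coding RNA gene, had 87.7, 118 and 132 normalized counts at 35 °C and 4.92, 7.95 and 36.0 at 45 °C. Its highest heated value was set by replicate 3, which had 36 reads against 4 and 7 reads in the other two. Its 45 °C mean was 14.5% of that at 35 °C, 5.73% without that library and up to 19.6% without another.

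The 6 genes with the largest falls, these 3 and the next 3, were also the ones of all 23 named for their fall or level whose ratio of means moved by over 1.5 times when 1 library was left out. LOC552666 had 214, 421 and 196 normalized counts at 35 °C and 96.0, 3.41 and 0 at 45 °C. The heated midguts thus ran from 78 reads to 3 and 0 reads, where a count of 0 allows up to 3 reads by counting error alone. Its 45 °C mean was 11.97% of that at 35 °C, and between 0.615% and 17.9% with a library left out. LOC100577039 had 327, 89.7 and 65.3 normalized counts at 35 °C and 32.0, 15.9 and 27.0 at 45 °C. Replicate 1 at 35 °C was the high value here, and without it the 45 °C mean was 32.2% of that at 35 °C in place of 15.5%. LOC100577039 overlaps Grd in the gene table, a gene that went from a mean of 74.8 to 237 normalized counts. LOC102656517 was one of the most expressed of the 95, with 7437, 8413 and 8738 normalized counts at 35 °C and 151, 3058 and 1296 at 45 °C. Its controls were within a narrow range, while its heated midguts lay 20.2-fold apart, the widest such range among the 94 genes with no 0. Its 45 °C mean was 18.3% of that at 35 °C, with 8.83% to 26.6% when a library was left out.

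The other 6 genes of the 12 are annotated as protein-coding, as is LOC100577039. None of their ratios of means moved by over 1.5 times with a library left out. The heated values of LOC725774, LOC725619 and LOC102656579 were still over 2-fold apart. LOC725682 had 323, 385 and 274 normalized counts at 35 °C and 73.9, 69.3 and 69.0 at 45 °C, so the heated values were almost equal. Its mean fell from 327 ± 55.8 to 70.7 ± 2.72 (SD, n = 3 each), to 21.6% of the control. LOC725619 went from 668, 695 and 774 normalized counts to 89.9, 203 and 202, with replicate 1 at 45 °C apart from the other two. LOC410465 went from 555, 531 and 425 to 97.3, 127 and 142 normalized counts. LOC725774 went from 170, 168 and 155 to 22.2, 39.8 and 50.02, LOC102656579 from 133, 169 and 140.4 to 20.9, 36.4 and 50.02, and LOC411215 from 89.5, 118 and 96.2 to 18.5, 29.5 and 26.01 normalized counts. In each of these 6 genes the control and heated values were apart by a wide margin, the highest heated value being at most 37.5% of the lowest control. Replicate 1 was the lowest of the 3 heated libraries in 5 of them, all but LOC725682.

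**Figure D3:**
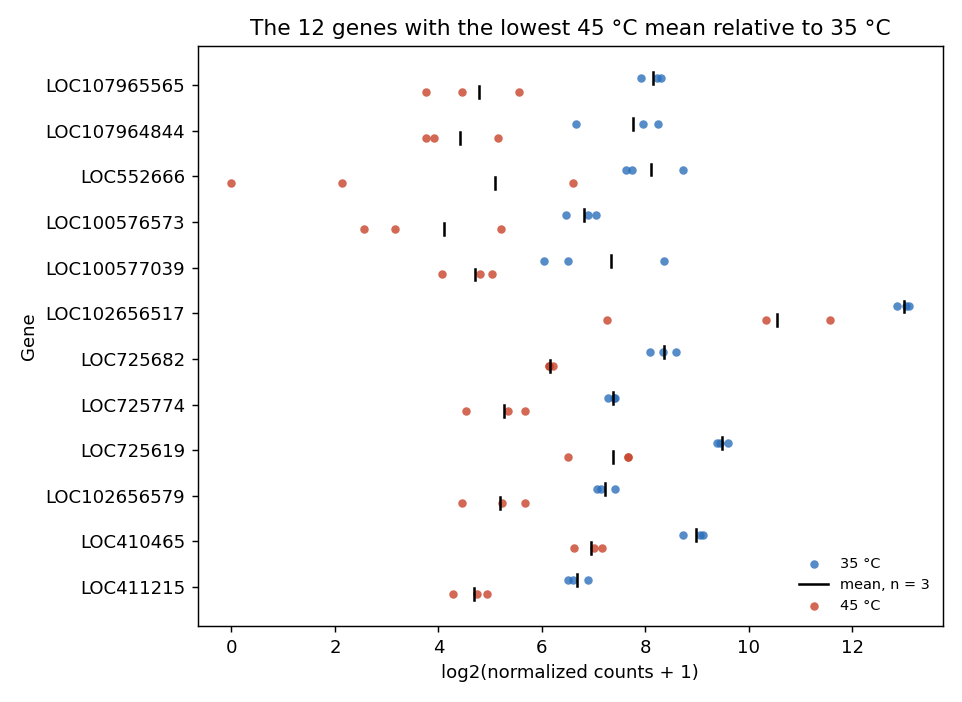
The 12 genes with the lowest 45 °C mean relative to the 35 °C mean, on a log2(normalized counts + 1) axis, with 1 point per library (blue 35 °C, red 45 °C) and a bar at the mean of 3. Blue and red points do not overlap in any gene, and the red points spread most in LOC552666 and LOC102656517.

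Highest levels at 35 °C. The 12 most expressed of the 95 genes had 35 °C means from 2340 to 17539 normalized counts, and 45 °C means from 18.3% to 43.7% of them. Levels are compared here between libraries and not between genes, as the counts are not corrected for transcript length. LOC413576 had 12952, 19121 and 20543 normalized counts at 35 °C (17539 ± 4036, SD, n = 3) and 5089, 4983 and 5872 at 45 °C (5315 ± 485, SD, n = 3). The heated midguts were closer together than the controls, and the mean at 45 °C was 30.3% of that at 35 °C. LOC408411 had 10191, 10611 and 11045 normalized counts at 35 °C and 3793, 3161 and 4212 at 45 °C, 35.1% by the means. Its span holds the microRNA gene Mir9887 in the gene table. LOC551714 had 8341, 6336 and 6310 normalized counts at 35 °C and 2441, 2483 and 2389 at 45 °C. Here the heated values were nearly identical, 2438 ± 47.3 (SD, n = 3), after controls of 6995 ± 1166 (SD, n = 3).

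LOC413997 went from 4768, 6722 and 6048 normalized counts at 35 °C to 1962, 2061 and 2312 at 45 °C, and LOC552671 from 3858, 4510 and 4366 to 1531, 1628 and 1674. They kept 36.1% and 38.0% of their control means. LOC410218 had 3610, 2622 and 2745 normalized counts at 35 °C and 1254, 921 and 1176 at 45 °C. LOC100577833 had 3953, 2054 and 2047 at 35 °C and 634, 734 and 822 at 45 °C, with replicate 1 well above the other controls. Its 45 °C mean of 27.2% became 35.6% without that library. LOC552579 kept 27.9%, with 2466, 2343 and 2211 normalized counts at 35 °C and 600, 551 and 805 at 45 °C. LOC409250, LOC412420 and LOC409236 kept 41.3%, 43.7% and 42.4%, from means of 2987 ± 657, 2680 ± 191 and 2427 ± 73.8 to 1234 ± 56.3, 1171 ± 31.8 and 1029 ± 104 normalized counts (SD, n = 3 each). Apart from LOC102656517, with its wide heated range, the 12 genes kept at least 27.2% of their control means.

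**Figure D4:**
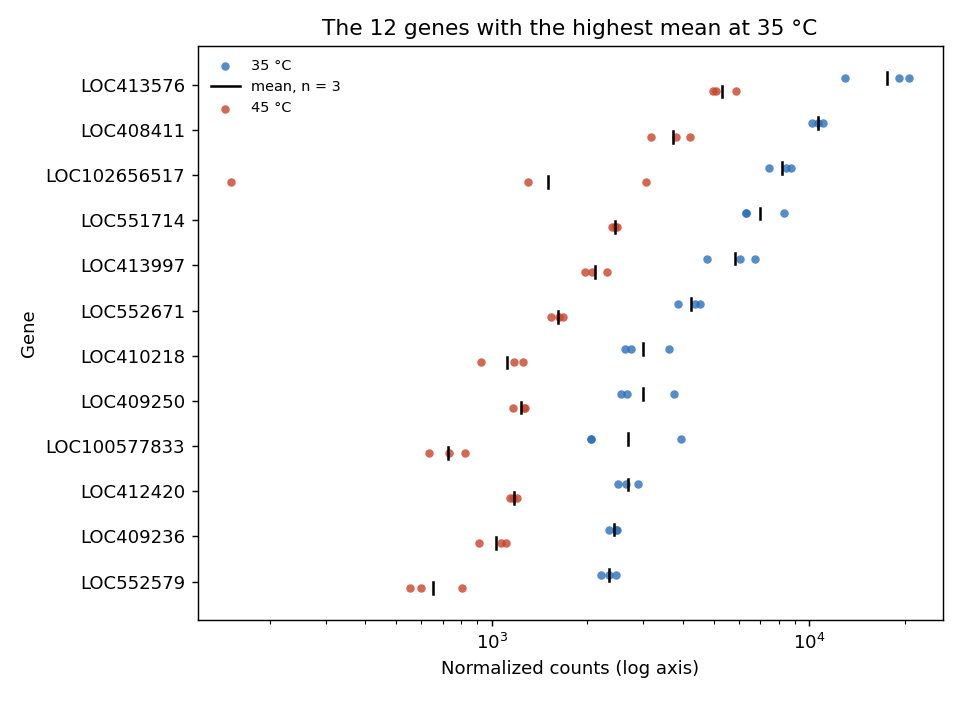
The 12 of the 95 genes with the highest mean at 35 °C, in normalized counts on a log axis, with 1 point per library (blue 35 °C, red 45 °C) and a bar at the mean of 3. Each gene's red points lie left of its blue points, and the red points of LOC102656517 run from 151 to 3058.

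Genes with a symbol. The gene table gives a symbol other than a LOC number to 2 of the 95 genes, and no role is assigned here to the other 93. IF-2mt encodes the mitochondrial translation initiation factor 2, which brings the initiator transfer RNA to the small subunit of the mitochondrial ribosome. It had 1466, 1361 and 1395 normalized counts at 35 °C (1407 ± 53.6, SD, n = 3) and 412, 566 and 552 at 45 °C (510.1 ± 84.9, SD, n = 3). The controls were close together, and the heated mean was 36.2% of the control mean. IF-2mt overlaps LOC726318 in the gene table, whose mean was 3918 normalized counts at 35 °C and 4900 at 45 °C, and how reads in the overlap were assigned is uncertain.

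Other genes of mitochondrial translation and respiration that have a symbol mostly did not pass the threshold. Of 15 such genes, IF-2mt was called lower and CytC, which encodes the electron carrier cytochrome c, was called higher. The list had a median log2 fold change of -0.31, against -0.01 over all genes. The 1 lower call among 15, beside 4.94% of all genes, is that of IF-2mt. Its selection largely fixes that call, and nothing is read from it. CytC had 5884, 3569 and 3547 normalized counts at 35 °C and 11300, 9638 and 7947 when heated (limma, log2 fold change 1.18, SE 0.23, adjusted p 0.00649). Its call was lost with library size alone (log2 fold change 0.79) and after quantile normalization (0.95), while the log2 fold change of all genes had a median of -0.39 and -0.15 under these scalings. mRpL16, a protein of the large mitochondrial ribosomal subunit, had 876, 981 and 1027 normalized counts at 35 °C and 527, 545 and 618 at 45 °C. Its log2 fold change (limma, -0.77, SE 0.13, adjusted p 0.0035) was short of the one asked for. So was that of Cox6b1, a subunit of cytochrome c oxidase (limma, -0.84, SE 0.11, adjusted p 0.00138). With library size alone both passed it, at -1.15 and -1.23, and 4 of the 15 genes were called lower and 0 higher, among 1616 and 829 over all genes. The 4 cytosolic translation factors with a symbol (Eif4g, Eif3h, EF1a-F2 and Ef-1a-f1) included no call in either direction.

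CPR4, the other gene with a symbol, encodes a cuticular protein of the family with the Rebers and Riddiford chitin-binding motif. It had 177, 167 and 180.1 normalized counts at 35 °C and 77.6, 57.9 and 75.03 at 45 °C, a fall from 175 ± 7.05 to 70.2 ± 10.7 (SD, n = 3 each), to 40.2%. Of the 11 cuticle protein genes with a symbol, CPR4 was called lower and CPR27 and CPF2 were called higher, beside 4.94% and 13.1% of all genes. The selection of CPR4 largely fixes its call, so nothing is read from the lower count. CPF2 had 864, 989 and 1218 normalized counts at 35 °C and 2708, 1928 and 2273 when heated (limma, log2 fold change 1.17, SE 0.18, adjusted p 0.00235), a call lost with library size alone (0.78). CPR27 was near the floor, with 6.53, 7.62 and 4.41 normalized counts at 35 °C and 30.8, 10.2 and 32.01 at 45 °C, and its adjusted p of 0.0436 in limma was 0.0757 without replicate 1, 0.0753 without replicate 2 and 0.119 without replicate 3 at 35 °C, and 0.132 and 0.133 without replicates 1 and 3 at 45 °C. CPR27 was not called with library size alone or after quantile normalization either. The median log2 fold change of the 11 cuticle genes was 0.25, against -0.01 over all genes. It was 0.06 after quantile normalization and -0.13 with library size alone, where all genes had -0.15 and -0.39. Without replicate 3 at 45 °C it was 0.0024, against -0.0086 over all genes, so its distance from all genes depended on that library.

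Biotypes, neighbours and overlaps. Of the 95 IDs, the RefSeq gene table for Amel_HAv3.1 holds 87, 83 as protein-coding genes and 4 as long non-coding RNA genes. The 8 not found made up 8.42% of the 95, against 3.46% of eligible genes and 8.38% of all listed genes. Long non-coding RNA genes made up 4.21%, against 2.97% of eligible genes. Besides LOC107965565 and LOC100576573, these were LOC107965347, with 188, 177 and 263 normalized counts at 35 °C and 65.2, 84.1 and 46.0 at 45 °C, and LOC107965039, with 518, 535 and 514 at 35 °C and 185, 190 and 221 at 45 °C. The values of the last lay within 1.2-fold of each other at either temperature.

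The genes were scattered, with 1 pair next to each other in the gene table. The pair is LOC410749, with 592, 555 and 577 normalized counts at 35 °C and 239, 275 and 275 at 45 °C, and LOC725682, described above. The 140 other listed genes that lie directly beside one of the 87 included 7 called lower (5%, against 4.94% of all genes) and 7 called higher (5%, against 13.1% of all genes). Their median log2 fold change was -0.24, against -0.10 over eligible genes and -0.01 over all genes. This difference was not tested. Of the 87 genes, 33 overlap another gene by the table's coordinates, and 28 overlap a listed one. Of these listed partners 2 met the limit between groups but not the minimum mean. LOC552652 went from 131, 113 and 102 to 34.5, 48.8 and 46.0 normalized counts, and its partner LOC100577263 from 75.5, 108 and 103 to 14.8, 22.7 and 32.01. LOC551553 went from 904, 605 and 492 to 225, 241 and 190.1, and its partner LOC107964843, a long non-coding RNA gene, from 28.9, 22.001 and 20.3 to 8.62, 7.95 and 8.003. The sources used here do not say whether the counting used strand or how it treated reads shared by overlapping genes, and the division of reads within these pairs is uncertain.

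Spread among midguts. In 14 of the 95 genes the 3 libraries lay within 1.2-fold of each other at both temperatures. LOC413794 was an example, with 721, 663 and 659 normalized counts at 35 °C and 308, 311 and 320.1 at 45 °C. LOC411697 was another, with 813, 703 and 690 at 35 °C and 295, 300 and 293 at 45 °C, and LOC552471 a further one, with 394, 444 and 399 and with 186, 191 and 186. These were shallow falls with almost no spread among heated midguts. At the other end, 10 genes were over 2-fold apart at 45 °C or had a 0 there, 9 of them among the 12 largest falls. The other was LOC550811, with 169.7, 155 and 199.5 normalized counts at 35 °C and 28.3, 74.97 and 66.0 at 45 °C. At 35 °C, 3 genes were over 2-fold apart (LOC107964844, LOC552666 and LOC100577039). The median coefficient of variation over the 95 genes was 10.3% at 35 °C and 13.01% at 45 °C, against 12.9% at both temperatures over eligible genes. The limit between groups favours genes with a small spread, so the lower value at 35 °C is not a finding. It also lets a shallow fall pass only with a small spread, and a wide heated range only with a lower 45 °C mean. The link between depth and spread in these examples thus follows from the rule and is not a finding either. Genes within 1.2-fold or over 2-fold apart were not counted over eligible genes.

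The heated midguts were not alike in these genes. Replicate 1 at 45 °C had the lowest heated value in 50 of the 95 genes (52.6%) and replicate 3 the highest in 47 (49.5%), against 33.6% and 31.0% of eligible genes. Both held at once in 30 genes, 31.6% against 15.2% of eligible genes. The summed normalized counts of the 95 genes were 37351, 40684 and 42395 in the 3 heated libraries, and 118636, 119884 and 119872 in the controls. LOC102656517 alone contributed 151, 3058 and 1296 to the heated sums, which is most of the step from replicate 1 to replicate 2. The 319 genes that were doubled or more went the other way, with the highest heated value in replicate 1 for 140 of them (43.9%) and the lowest in replicate 3 for 139 (43.6%), against 34.2% and 34.3% of eligible genes. With library size alone in place of the authors' size factors, these values became 75.8% and 65.3% for the 95 genes, against 58.9% and 47.4% of eligible genes, and 25.1% and 23.8% for the doubled genes, against 15.1% and 18.1%. Under that scaling replicate 1 had the lowest heated value in 50.8% of the doubled genes, below the 58.9% of eligible genes, and was no longer the library that most often had the highest. Relative to eligible genes, replicate 1 was thus more often lowest in the 95 genes and more often highest in the doubled genes under either scaling. These counts are over genes that share the same 3 libraries, and no test was made.

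**Figure D5:**
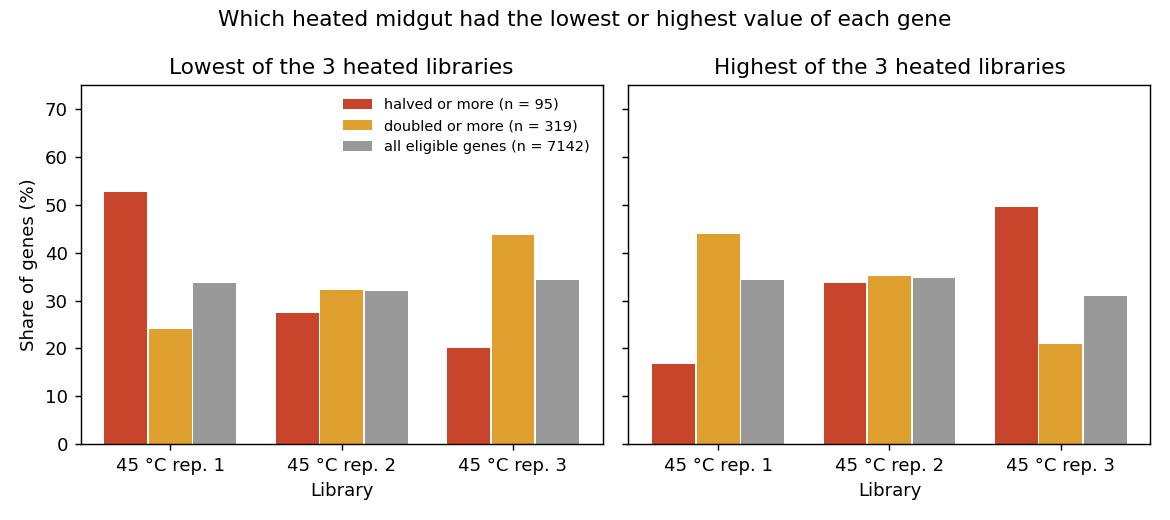
Share of genes (percent, y axis from 0) for which each heated library had the lowest (left) or the highest (right) of the 3 values at 45 °C. Red bars are the 95 genes, orange bars the 319 genes doubled or more and grey bars the 7142 eligible genes; red is highest for replicate 1 at left, at 52.6%, and for replicate 3 at right, at 49.5%.

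Around the limits of the rule. The 95 genes end within a continuous range and not at a gap. Just inside, LOC408336 had a highest heated value of 49.9% of its lowest control value (451 against 903 normalized counts), and LOC409250 and LOC551974 had 49.8% and 49.7%. Just outside, LOC551477 had 50.03%, LOC411364 had 50.2% and LOC107965891 had 50.3%. LOC107965891, with 377, 386 and 322 normalized counts at 35 °C and 84.9, 124 and 162 at 45 °C, fell further by its means, to 34.2%, than LOC408336, to 44.8%. A rule on the means alone, with a 45 °C mean of at most 50% of the 35 °C mean, took 438 eligible genes, the 95 among them. Of the 343 added, 15 kept at most 25% of their control mean, and in 6 of these the 2 groups overlapped.

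Further genes met the limit between groups and were kept out by another condition. Of these, 23 had a 35 °C mean below 100 and 1 was LOC406142, left out by name. The remaining one, the long non-coding RNA gene LOC726292, was among the 100 most expressed, with 17315, 25686 and 25406 normalized counts at 35 °C and 3693, 5306 and 7295 at 45 °C. The number of genes depended on the libraries, since leaving one out loosens the limit. It was 149 without replicate 1 at 35 °C, 148 without replicate 2 and 160 without replicate 3 at 45 °C, and 121 to 126 without each of the other three. Of the 95 genes, 93 met the rule with any 1 library left out.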

How the data were processed

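The data were 6 poly(A) RNA-Seq libraries, 3 at 35 °C and 3 at 45 °C, grouped and numbered by their sample titles. The submitters' processing notes name Trimmomatic 0.36, STAR, Subread and DESeq2, and the methods name genome build Amel 4.5. The deposited signal values are gene counts to which the authors had applied DESeq2 size factors, 1 a library (0.812 to 1.18, recovered from the values). In each column 100% of values lay within 0.01 of a whole read, and factors computed again from these reads matched. No 2 libraries of a group agreed within sampling noise (mean chi-square per gene at least 44.4).

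The rule was applied to the values as deposited. For the share of all genes called, limma 3.58.1 (R 4.3.3, empirical Bayes with trend) was fitted to log2(value + 1) of the 10151 genes without a block, with Benjamini-Hochberg adjustment, calling genes at an adjusted p under 0.05 whose log2 fold change exceeded 1 in size. A mean of at least 1 removed no gene. Adding 1 shrinks the fold changes of low genes. DESeq2 1.42.0 and edgeR 4.0.16 on the recovered reads, other pseudocounts, filters, scalings and limits, a replicate block and each library left out were alternatives. The code was tested on simulated data. An exact two-sided permutation test of 1 gene cannot give a p under 0.1 with 3 libraries a group, so none is printed. Whether bees came from separate cages is not given, so p-values measure the spread between these midguts.

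Members and lists were chosen with earlier results of these data known. Named genes were the 12 with the lowest ratio of means, the 12 with the highest 35 °C mean, the 3 nearest the limit on either side, runs of neighbours and members of families. Families, markers and promoter motifs had been planned from gene descriptions and sequences, which were not used here. Lists of symbols took their place, chosen after the values were seen, as were the examples of small spread, overlap and LOC726292. Names and neighbours came from RefSeq's table for Amel_HAv3.1, which holds 9300 of the 10151 IDs (91.6%). That build differs from the authors', so no coordinates or sequences are given.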

Additional observations from a re-analysis of the deposited data

How the results depend on the processing

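The number of genes halved or more, 95, was 374 with library size alone, all 95 among them, a scaling under which all genes had a median log2 ratio of -0.39. It was 129 after quantile normalization (-0.15) and 95 with TMM factors, and 94 of the 95 genes met the rule under each of these 3 scalings. It was 438 with the limit set on means and 1 with a highest heated value of at most 25% of the lowest control, by construction. With a library left out it ranged from 121 to 160. Minimum means of 50, 200 and none gave 104, 81 and 117, and keeping the 100 highest genes gave 96. The median log2 ratio of the 95 genes, -1.49, was -1.87 with library size alone, and -1.44 to -1.52 with a library left out.

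Over all genes, 501 lower and 1327 higher became 1616 and 829 with library size alone. Quantile normalization gave 801 lower and 1077 higher, and a mean of at least 100 gave 359 lower and 872 higher. With a library left out 382 to 545 were lower and 1177 to 1309 higher. DESeq2 called 533 and 1379, and edgeR 496 and 1333. Same-numbered libraries deviated together weakly (r = 0.154, 0.0164 and 0.00538), so the numbers were not taken as pairs, and with the replicate block 524 and 1348 genes were called. The 140 doubled genes highest in replicate 1 and the 139 lowest in replicate 3 at 45 °C became 80 and 76 with library size alone. These alternatives and those for the symbol lists were chosen after seeing the data. For the 23 genes named for their fall or level, 195 of 207 values under alternatives moved by less than the spread between libraries. The others moved by more, with none above 47.3% of the control. That spread is each gene's own, so a variable gene can hardly exceed it. LOC552666 counted as unmoved at 0.615% in place of 11.97%, and the count is no measure of steadiness. Precision is limited by reads in the heated libraries for the weakest genes, as 2 of the 95 had a library with fewer than 10 reads.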
